A study of Homo sapiens with 21 samples.

Results

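The genes described here are 10 members of the semaphorin signalling system, namely the neuropilins *NRP1* and *NRP2*, the plexins *PLXNA1*, *PLXNA2* and *PLXNB1*, and the semaphorins *SEMA3A*, *SEMA3C*, *SEMA3F*, *SEMA4B* and *SEMA7A*. They were chosen by symbol from the 23201 genes of the deposited expression table. RNA came from HMLE cells, an immortalized line of human mammary epithelial cells grown as 1 line. Cells were untreated (d0) or had received TGFβ, a cytokine that induces epithelial-to-mesenchymal transition (EMT), for 1, 4, 7, 10, 15 or 20 days (d1 to d20). There were 21 libraries over 7 timepoints, 3 for each, and all cells were seeded at one density. The untreated libraries stand for day 0 alone, so days in culture and days of TGFβ cannot be told apart, and the dose is not given in the sources used here. The series was designed to follow transcription through EMT.

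Semaphorins are secreted or membrane-bound guidance proteins first known from growing axons. Plexins are their transmembrane receptors, which signal to small GTPases and the actin cytoskeleton. Most secreted class 3 semaphorins bind a neuropilin, which holds the ligand while an A-type or D-type plexin carries the signal inward, and neuropilins also bind forms of VEGF. SEMA4-type ligands sit in the membrane and bind B-type plexins among others. SEMA7A is held at the cell surface by a lipid anchor and can signal through an integrin. In epithelia and their tumours these proteins are known for effects on adhesion, migration and vessel growth.

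Values are normalized read counts, that is, reads of a gene divided by one size factor per library. Each timepoint was compared with d0 on log2(value + 1) by limma, with all 7 groups in one fit. A gene was called changed at a Benjamini-Hochberg adjusted p under 0.05 over the 13343 genes whose mean over the libraries reached 10. All 10 genes passed that filter. The study calls the libraries of a day biological triplicates, and the labels do not name separate cultures, so p-values measure the spread between these libraries.

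Totals ran from 18847917 to 22667754 reads per library. In the 18 pairs of same-day libraries outside d7 the root mean square difference was 0.214 to 0.243 log2 units. At d7, library 3 stood apart by 0.472 and 0.457 from the other two, which differed by 0.223, and its weight is given below where it touched a call. The epithelial cadherin *CDH1* was 7195 ± 216 (SD, n = 3) at d0 and 2868 ± 37.5 at d20, while the mesenchymal filament *VIM* was 5181 ± 72.9 and 63815 ± 1949. The 5 endothelial markers summed to at most 58.5 in any library, and *CDH5*, which defines that type, had no more than 3 reads in each. The others did not all move alike. The mean of *PECAM1* was 41.3 at d0 and 12.2 at d20, and that of *TEK* was 1.43 and 20.7. Of the 4 immune markers, 3 were at that floor in every library, and *CD68* held most of the sum. The 4 neuronal markers summed to 593 to 1823, most of it from the tubulin *TUBB3*, and the part of these markers in the results was not tested.

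The promoters of the neuropilin and the A-type plexins that were higher on all 6 treated days are shown first. Each of these 3 genes has 1 entry in the RefSeq promoter table (build GRCh38.p14). Their steps between neighbouring days were not all alike, and from d15 to d20 *NRP2* fell while *PLXNA1* rose. Each line holds the 250 bases before the annotated start, 5′ to 3′ on the gene's strand. Capitals mark the GC-box letters GGGCGG or, on the other strand, CCGCCC. *NRP2* lies at chr2:205682251-205682500 (plus strand), *PLXNA1* at chr3:126982865-126983114 (plus strand) and *PLXNA2* at chr1:208244385-208244634 (minus strand).
NRP2: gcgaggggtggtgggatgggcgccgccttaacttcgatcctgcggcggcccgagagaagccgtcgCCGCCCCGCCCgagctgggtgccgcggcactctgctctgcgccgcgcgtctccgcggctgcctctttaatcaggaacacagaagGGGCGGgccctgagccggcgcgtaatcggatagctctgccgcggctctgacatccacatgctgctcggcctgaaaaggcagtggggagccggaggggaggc
PLXNA1: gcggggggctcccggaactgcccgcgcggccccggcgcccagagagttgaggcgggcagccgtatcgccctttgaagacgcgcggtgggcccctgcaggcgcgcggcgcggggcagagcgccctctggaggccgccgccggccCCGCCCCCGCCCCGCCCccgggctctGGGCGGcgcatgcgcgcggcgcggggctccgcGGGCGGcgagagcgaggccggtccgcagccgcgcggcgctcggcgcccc
PLXNA2: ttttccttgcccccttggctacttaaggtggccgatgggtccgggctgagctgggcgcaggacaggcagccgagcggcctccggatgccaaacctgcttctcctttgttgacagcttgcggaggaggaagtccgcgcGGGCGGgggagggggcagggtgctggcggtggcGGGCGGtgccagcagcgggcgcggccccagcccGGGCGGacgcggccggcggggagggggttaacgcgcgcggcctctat
The GC-box letters occurred 3, 5 and 3 times in these stretches, where neighbouring matches may share a letter, and 42.3% of 27305 promoters of that length held them at least once. GC content was 70%, 84.4% and 72.4% of bases, against a median of 58% over those promoters. A search of both strands for the SMAD-binding element GTCTAGAC (in 0.176% of promoters), the CAGA letters CAGACA (13.6%), the AP-1 letters TGANTCA (6.6%), the E2-box CAGGTG (17.5%) and the TEAD letters GGAATG (11.9%) found none of them in these 3 windows. Of the other genes with an entry, *SEMA7A* and *SEMA3C*, also higher on all 6 treated days, had 70% and 36.4% GC, with 3 and 0 GC-box matches. *SEMA3F*, *SEMA4B* and *PLXNB1*, which were not, had 82%, 79.2% and 59.6% GC, with 12, 5 and 0 matches. Each of these other genes has more than 1 entry, and the first was used. A match describes letters, not a bound site.

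*SEMA7A*, *SEMA3C*, *PLXNA1*, *PLXNA2* and *NRP2* were higher than in untreated cells on all 6 treated days, and *SEMA3A* was lower on all 6. *NRP1*, *PLXNB1* and *SEMA3F* were higher on some days and lower on others, and *SEMA4B* was higher on 3. The plot of single libraries by day shows these courses. In bulk RNA, fewer cells making a transcript and less transcript per cell cannot be told apart.

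**Figure D1:**
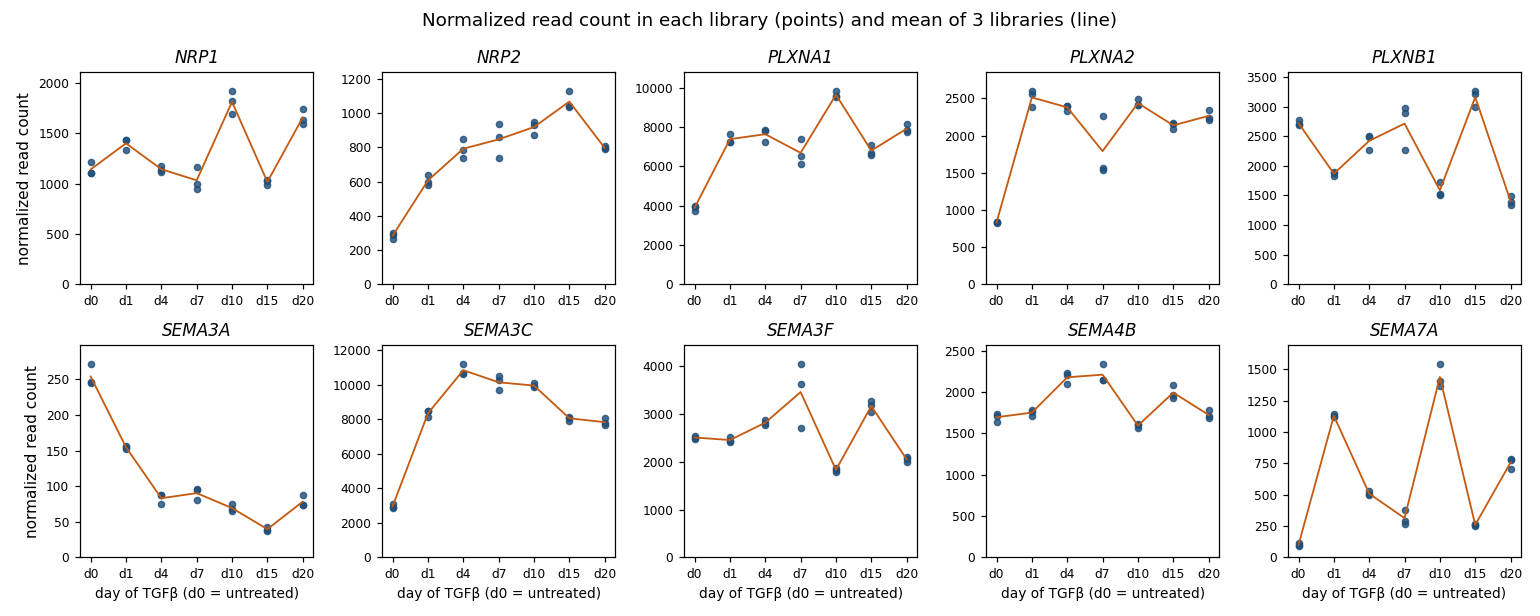
Normalized read count (y axis, from 0, own scale per gene) of each of the 10 genes on each day (x axis), with 1 point per library and a line through the mean of 3 libraries. *SEMA7A* peaks at d1 and d10, *SEMA3A* is highest at d0, and *PLXNB1* and *SEMA3F* dip where *NRP1* peaks at d10.

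At d1, 6 of the 10 genes were higher and 2 lower, where 31.3% and 28.5% of all genes tested were called in those directions. On d4 they were 6 and 2 (background 36.9% and 35.3%), and d7 gave 7 and 2 (34.6% and 32.6%). At d10, 6 genes were higher and 3 lower (37% and 30.7%). At d15, 8 were higher and 2 lower (39.2% and 37.3%), and at d20, 6 were higher and 3 lower (32.5% and 30.2%). On each day the higher calls were a larger share of the 10 genes than of all genes, while the lower calls at d10 and d20 were at the background share. The 10 genes were chosen with earlier results of these data known, so the larger share describes these genes and cannot speak for the wider family. The median log2 fold change of the 10 genes lay between 0.57 at d15 and 0.99 at d10, beside medians of all genes tested between 0.00 and 0.03.

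With at least a 2-fold change also required, d1 had 4 genes called (10.3% of all genes), d4 had 5 (14.7%), d7 had 5 (11.7%), d10 had 6 (14.3%), d15 had 5 (20.3%) and d20 had 6 (12.2%). All 6 comparisons use the same 3 untreated libraries, so they are not independent of each other. Rescaling each library to the same total moved the median of all genes to between -0.20 and -0.14, and the share of higher genes among those called from 51.1% to 54.6% down to 26.7% to 39.1%. Under quantile normalization that share was 41.9% to 47.7%, and the members' counts were those of the full fit except for 4 lower at d10 (35.3% of all genes) and 7 higher at d15 (36.6%). With rescaling, the members higher and lower numbered 5 and 4 on d1 (18.3% and 50.2% of all genes), 6 and 3 on d4 (25.8% and 49.5%) and 7 and 3 on d7 (22.7% and 49.1%). They numbered 6 and 4 on d10 (21.5% and 50.5%), 5 and 2 on d15 (30.3% and 47.2%), and 6 and 4 on d20 (19.9% and 50.8%).

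**Figure D2:**
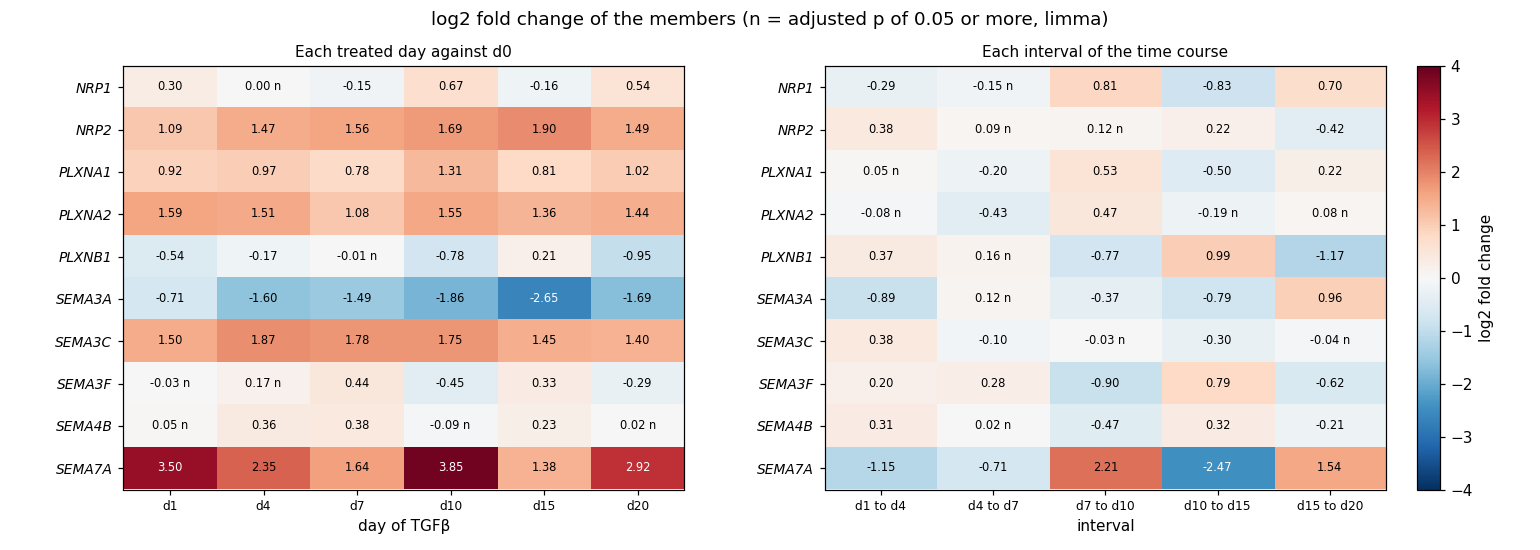
Log2 fold change (colour and number) of each gene (rows) on each treated day against d0 (left) and over each interval between neighbouring days (right), with n beside a value whose adjusted p was 0.05 or more. *SEMA7A* holds the largest rise, 3.85 at d10, and *SEMA3A* the largest fall, -2.65 at d15.

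Of the neuropilins, *NRP2*, which favours SEMA3F and SEMA3C as ligands and binds VEGF-C, rose with TGFβ and stayed above d0. Its libraries read 287, 298 and 267 at d0, 638, 599 and 583 at d1, and 850, 787 and 738 at d4. They read 938, 860 and 739 at d7, and 874, 932 and 949 at d10. At d15 they read 1127, 1032 and 1040, and at d20 they read 795, 806 and 788. None of the 18 treated libraries overlapped the untreated ones. The log2 fold change was 1.09 at d1 (standard error 0.07, limma adjusted p = 2.3e-11), 1.90 at d15 (adjusted p = 6.81e-16) and 1.49 at d20 (adjusted p = 8.53e-14). In the order of the levels, from d15 down through d10, d7, d20, d4 and d1 to d0, the libraries of d10 and d7, of d7 and d20, and of d20 and d4 overlapped. It fell by 0.42 on the log2 scale from d15 to d20 (adjusted p = 2.09e-05).

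*NRP1*, the partner best known for SEMA3A and VEGF-A, had no single direction. At d0 its libraries read 1214, 1112 and 1102, and at d1 1431, 1439 and 1337. They read 1174, 1121 and 1139 at d4, and 995, 946 and 1162 at d7. They read 1827, 1696 and 1920 at d10, 992, 1034 and 1030 at d15, and 1639, 1741 and 1595 at d20. The d1, d10 and d20 libraries lay above every untreated one, and those of d15 below. The log2 fold change was 0.30 at d1 (standard error 0.06, adjusted p = 0.000393, limma), 0.67 at d10 (adjusted p = 6.37e-09) and 0.54 at d20 (adjusted p = 1.97e-07), that is, 1.59-fold higher at d10 and 1.45-fold higher at d20.

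The lower calls of *NRP1* were -0.15 at d7 (adjusted p = 0.0437, limma) and -0.16 at d15 (adjusted p = 0.0222), and d4 did not pass (0.00, adjusted p = 0.965). The d7 call was lost without d0 library 1 (adjusted p = 0.198), d7 library 1 (0.133) or d7 library 2 (-0.09, 0.253), and its log2 fold change was -0.23 without d7 library 3. The d15 call was lost without d0 library 1 (adjusted p = 0.121) or d15 library 1 (0.0739). The d7 call was also lost with DESeq2 (adjusted p = 0.0606), with no filter (0.0592) and with only those 2 groups in the fit (0.183). With libraries rescaled to one total, *NRP1* was lower at d4 (-0.19, adjusted p = 0.0117), d7 (-0.34, adjusted p = 0.000106) and d15 (-0.32, adjusted p = 0.000144), its d1 call was lost (0.10, adjusted p = 0.175), and d10 and d20 were 0.44 and 0.34.

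The ratio of *NRP1* to *NRP2* values within a library, on the normalized count scale, put these 2 courses side by side. It was 4.22, 3.74 and 4.13 at d0, and 0.88, 1.00 and 0.99 at d15. At d20 it was 2.06, 2.16 and 2.02, and over all treated libraries it stayed below the lowest untreated ratio. Its mean on d0 was 4.03 ± 0.26 (SD, n = 3), falling to 2.31 ± 0.08 on d1, 1.45 ± 0.08 on d4 and 1.24 ± 0.29 on d7, and d10 had 1.98 ± 0.14. A ratio of counts from genes of unequal length is no ratio of molecules, but its course over days does not depend on length unless the isoforms change.

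Of the A-type plexins, the receptors that pair with neuropilins for class 3 semaphorins, both rose at d1 and stayed above d0. *PLXNA1* libraries read 3742, 3920 and 4006 at d0, 7242, 7251 and 7643 at d1, and 7256, 7845 and 7797 at d4. They read 6531, 6129 and 7384 at d7, and 9578, 9817 and 9509 at d10. At d15 they read 7106, 6588 and 6700, and at d20 8143, 7864 and 7723. No treated library overlapped the untreated ones, and d10 stood above every other day. On the log2 scale the fold change was 0.92 at d1 (standard error 0.05, adjusted p = 1.68e-12, limma), 1.31 at d10 (adjusted p = 3.26e-15) and 1.02 at d20 (adjusted p = 2.07e-13). Neighbours d20 and d4, d4 and d1, and d15 and d7 overlapped.

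*PLXNA2* rose by a larger factor from a lower count. Its libraries read 838, 825 and 837 at d0, 2554, 2598 and 2391 at d1, and 2332, 2404 and 2405 at d4. At d7 they read 1563, 1541 and 2270. They read 2416, 2491 and 2405 at d10, 2161, 2167 and 2088 at d15, and 2350, 2232 and 2214 at d20. Each of the 18 treated libraries was above the untreated ones, and at d7 the first 2 libraries sat below those of every other treated day while library 3 did not. Its log2 fold change was 1.59 at d1 (standard error 0.09, adjusted p = 1.29e-12, limma), 1.08 at d7 (adjusted p = 7.19e-10) and 1.44 at d20 (adjusted p = 5.19e-12). The d0 ratio of *PLXNA1* to *PLXNA2*, 4.67 ± 0.18 (SD, n = 3), was above those of d1, 2.94 ± 0.22, and d20, 3.49 ± 0.03, in every library.

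*PLXNB1*, a receptor for SEMA4D that couples to RHOA, went the other way from the A-type plexins at d1, d10 and d20. Its libraries read 2767, 2712 and 2681 at d0, 1835, 1882 and 1888 at d1, and 2266, 2493 and 2506 at d4. They read 2976, 2890 and 2273 at d7, and 1523, 1514 and 1725 at d10. At d15 they read 2995, 3260 and 3221, and at d20 1495, 1386 and 1335. The d1, d4, d10 and d20 libraries lay below every untreated one and the d15 libraries above, while d7 overlapped d0. On the log2 scale *PLXNB1* was -0.54 at d1 (standard error 0.07, adjusted p = 2.38e-06, limma), -0.78 at d10 (adjusted p = 8.01e-09), 0.21 at d15 (adjusted p = 0.0132) and -0.95 at d20 (adjusted p = 3.5e-10).

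The d15 rise of *PLXNB1* did not pass with libraries rescaled (0.06, adjusted p = 0.506) or under quantile normalization (0.16, adjusted p = 0.0752). The d4 decrease of -0.17 (adjusted p = 0.0483, limma), -0.37 with libraries rescaled and -0.27 under quantile normalization, lost its call without any 1 of the 3 untreated libraries or d4 library 1 or 2 (adjusted p = 0.0548 to 0.199). At d7 the difference of -0.01 (adjusted p = 0.88) became 0.11 (adjusted p = 0.047) without d7 library 3.

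Of the class 3 semaphorins, the secreted ligands, *SEMA3C* rose, *SEMA3A* fell and *SEMA3F* alternated. *SEMA3C*, a ligand that binds both neuropilins, had libraries at 3097, 2862 and 2924 at d0, 8476, 8462 and 8114 at d1, and 11195, 10638 and 10715 at d4. They read 10255, 10503 and 9681 at d7, and 10103, 9853 and 9920 at d10. At d15 they read 8094, 8164 and 7931, and at d20 7666, 7794 and 8050. Every treated library was far above the highest untreated one, and the d4 libraries were the highest. Against d0 the log2 fold change was 1.50 at d1 (standard error 0.04, adjusted p = 1.23e-18, limma), 1.87 at d4 (adjusted p = 1.59e-20) and 1.40 at d20 (adjusted p = 2.53e-18). Neighbours d7 and d10, d1 and d15, and d15 and d20 overlapped.

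*SEMA3A*, the ligand first known for collapsing growth cones, was the only member lower on every treated day. Its libraries read 271, 247 and 244 at d0, 153, 155 and 157 at d1, and 87.3, 75.0 and 87.2 at d4. They read 95.0, 95.9 and 80.0 at d7, and 64.7, 74.8 and 68.5 at d10. On d15 they read 37.7, 38.9 and 42.5, and at d20 73.1, 73.7 and 88.1. All 18 treated libraries were below the untreated ones, d15 was below every other day, and the reads behind a value were at least 37. Against d0 its log2 fold change was -0.71 at d1 (standard error 0.11, adjusted p = 9.17e-06, limma), -2.65 at d15 (adjusted p = 3.04e-15) and -1.69 at d20 (adjusted p = 1.21e-11), that is, 6.27-fold lower at d15 and 3.23-fold lower at d20. It rose again by 0.96 from d15 to d20 (adjusted p = 7.75e-08).

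*SEMA3F*, which acts mainly through NRP2, had libraries at 2468, 2506 and 2546 at d0, 2522, 2405 and 2432 at d1, and 2806, 2878 and 2762 at d4. They read 4038, 3634 and 2696 at d7, and 1791, 1867 and 1831 at d10. On d15 they read 3270, 3033 and 3185, and at d20 2099, 2049 and 2002. The d4, d7 and d15 libraries lay above the untreated ones and those of d10 and d20 below. The log2 fold change was 0.44 at d7 (standard error 0.08, adjusted p = 9.14e-05, limma), -0.45 at d10 (adjusted p = 6.54e-05), 0.33 at d15 (adjusted p = 0.00114) and -0.29 at d20 (adjusted p = 0.00503). At d1 and d4 it was -0.03 (adjusted p = 0.767) and 0.17 (adjusted p = 0.079), and with only d0 and d4 in the fit d4 passed (limma adjusted p = 0.000126). The d15 call was lost with libraries rescaled (0.18, adjusted p = 0.0521), and at d1 and d4 the rescaled values were -0.22 (adjusted p = 0.0178) and -0.03 (adjusted p = 0.747). Rescaled values of the other days were 0.25 at d7, -0.68 at d10 and -0.49 at d20, and quantile normalization gave -0.44 at d20.

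Within a library the ratio of *SEMA3C* to *SEMA3F* was 1.25, 1.14 and 1.15 at d0, 5.64, 5.28 and 5.42 at d10, and 3.65, 3.80 and 4.02 at d20. Every treated day was above d0 in all 3 libraries, with means between 2.55 ± 0.12 at d15 and 5.44 ± 0.18 at d10 (SD, n = 3). The ratio of *SEMA3C* to *SEMA3A* was 11.7 ± 0.28 (SD, n = 3) at d0, 54.0 ± 1.97 at d1, 131 ± 9.76 on d4, 204 ± 14.9 at d15 and 101 ± 8.08 at d20. The 2 ligands thus parted at d1 and stayed apart.

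**Figure D3:**
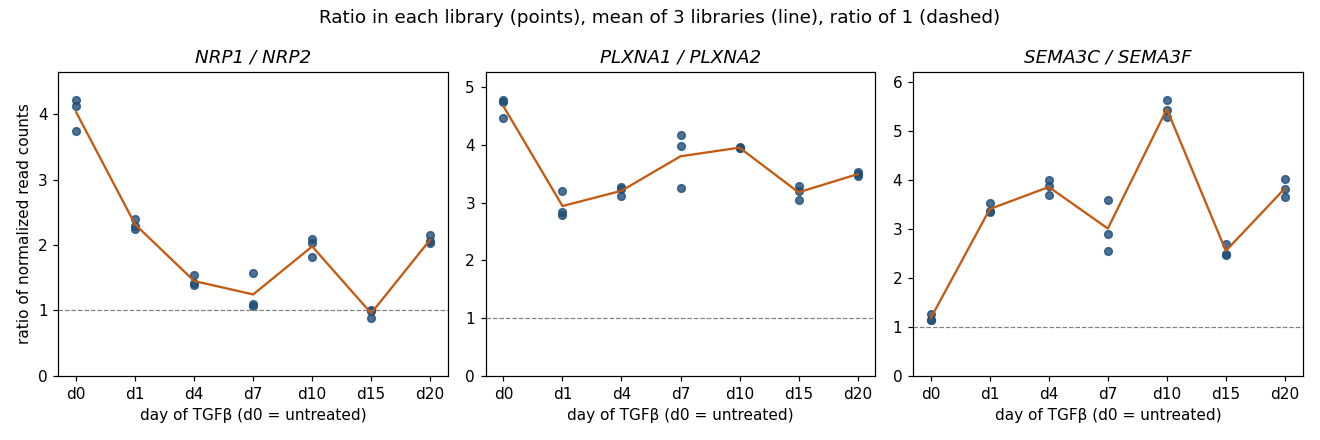
Ratio of normalized read counts of 2 genes within each library (y axis, from 0) by day (x axis), with 1 point per library, a line through the mean of 3 libraries and a dashed line at 1. *NRP1* / *NRP2* reaches 0.957 at d15, *PLXNA1* / *PLXNA2* is highest at d0, and *SEMA3C* / *SEMA3F* peaks at 5.44 at d10.

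*SEMA7A*, the lipid-anchored semaphorin, had the largest log2 fold change of the 10 genes at d1, d4, d10 and d20. At d7 *SEMA3C* and at d15 *SEMA3A*, *NRP2* and *SEMA3C* changed more. Its libraries read 88.1, 95.8 and 115 at d0, 1141, 1129 and 1119 at d1, and 505, 527 and 494 at d4. They read 267, 292 and 382 at d7, and 1542, 1367 and 1410 at d10. On d15 they read 254, 263 and 261, and at d20 785, 779 and 708. No 2 neighbours in the order of its levels (d10, d1, d20, d4, d7, d15, d0) overlapped. The log2 fold change was 3.50 at d1 (standard error 0.10, adjusted p = 1.04e-17, limma), 3.85 at d10 (adjusted p = 1.7e-18), 1.38 at d15 (adjusted p = 3.92e-11) and 2.92 at d20 (adjusted p = 1.89e-16). These are 11.3-fold, 14.4-fold, 2.60-fold and 7.58-fold higher on the log2(value + 1) scale.

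*SEMA4B*, a membrane-bound class 4 semaphorin, moved least, with treated libraries between 1567 and 2335 and untreated ones between 1640 and 1732. It was higher at d4 (log2 fold change 0.36, standard error 0.04, adjusted p = 1.2e-07, limma), d7 (0.38, adjusted p = 7.35e-08) and d15 (0.23, adjusted p = 3.74e-05). At d1, d10 and d20 it was 0.05, -0.09 and 0.02 (adjusted p = 0.346, 0.0684 and 0.628). With libraries rescaled it was -0.15 at d1 (adjusted p = 0.00364), -0.32 at d10 (adjusted p = 6.85e-07), 0.07 at d15 (adjusted p = 0.11) and -0.18 at d20 (adjusted p = 0.000724), and the d4 and d7 values were smaller, 0.16 and 0.19. Under quantile normalization d1 and d20 were -0.06 and -0.08. The d10 decrease also passed under quantile normalization (-0.24, adjusted p = 8.37e-05), with edgeR (-0.13, adjusted p = 0.0127), with only those 2 groups in the fit (adjusted p = 0.0342) and without d0 library 3 (-0.11, adjusted p = 0.0421).

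Divided by the length of the longest GENCODE transcript of each gene, which allows levels to be compared between genes, the secreted ligands *SEMA3F* and *SEMA3C* led at d0 with 659 ± 10.2 and 572 ± 23.6 normalized reads per kb (SD, n = 3). *SEMA4B* had 445 ± 12.6, *PLXNA1* 429 ± 14.8, *PLXNB1* 372 ± 5.94 and *NRP1* 194 ± 10.5 normalized reads per kb. *SEMA3A* and *SEMA7A* were lowest at 30.9 ± 1.82 and 29.5 ± 4.06, and these 2 overlapped in spread. At d20 *SEMA3C* led with 1515 ± 37.8, followed by *PLXNA1* with 872 ± 23.6 and *SEMA3F* with 539 ± 12.7 normalized reads per kb. *SEMA7A*, last at d0, ranked 6 of 10 at 224 ± 12.7, and *SEMA3A* was last at 9.52 ± 1.03. Cells may use shorter transcripts, which would raise a level on this scale.

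Between neighbouring days, 5 members were higher and 3 lower from d1 to d4 (32.9% and 32% of all genes), 1 and 4 from d4 to d7 (25.5% and 25.5%), and 4 and 4 from d7 to d10 (36.2% and 35.2%). From d10 to d15, 4 were higher and 5 lower (39.3% and 40.5%), and from d15 to d20, 4 and 4 (37.7% and 36.3%). Without d7 library 3, *NRP1* (-0.24, adjusted p = 0.000109), *NRP2* (0.18, adjusted p = 0.00964) and *PLXNB1* (0.28, adjusted p = 6.96e-06, limma) also passed from d4 to d7, and *SEMA3C* (-0.06, adjusted p = 0.0946) did not. *SEMA3F* over that interval was 0.28 in the full fit, 0.44 without d7 library 3 and 0.15 without d7 library 1 (adjusted p = 0.0889), and *SEMA3C* also lost its call without d4 library 1 (adjusted p = 0.151). The rise of *SEMA3F* from d1 to d4 (0.20, adjusted p = 0.0435) was lost without any 1 of the 6 libraries (adjusted p = 0.0565 to 0.109). *NRP2* passed from d7 to d10 without d7 library 1 (adjusted p = 0.0166) and did not pass from d10 to d15 without d15 library 1 (adjusted p = 0.0529).

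From d7 on, *NRP1*, *PLXNA1* and *SEMA7A* rose to d10, fell to d15 and rose to d20, and *PLXNB1*, *SEMA3F* and *SEMA4B* did the reverse, each step called. *SEMA7A* moved by 2.21, -2.47 and 1.54 log2 units over these steps (standard error 0.10, adjusted p = 4.23e-13, 3.33e-15 and 1.2e-11, limma). *NRP1* moved by 0.81, -0.83 and 0.70, and *PLXNA1* by 0.53, -0.50 and 0.22. In the other direction *PLXNB1* moved by -0.77, 0.99 and -1.17, *SEMA3F* by -0.90, 0.79 and -0.62, and *SEMA4B* by -0.47, 0.32 and -0.21. Under quantile normalization the last step of *PLXNA1* did not pass (0.09, adjusted p = 0.0841). Neighbouring steps share a day, so they are not independent.

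The summed level of 7 basal epithelial markers also alternated over these days. It was 345440 to 708129 at d7, 214198 to 218343 at d10, 497745 to 514247 at d15 and 274070 to 277205 at d20, the lowest d7 value being that of library 3. The keratins carried the sum, and *KRT5* was 149134 in d7 library 3 and 298352 and 281986 in the other two. Not all 7 markers moved this way. The mean of *ITGA6* ran opposite, at 16510 on d7, 25315 on d10, 13794 on d15 and 19058 on d20, and that of *EPCAM* was 297 on d7, 454 on d10, 392 on d15 and 402 on d20. The part of this alternation in the members' steps was not tested. Summed over 4 TGFβ response genes, the level was 17185 to 17867 at d0, 276456 to 280571 at d10 and 452520 to 462324 at d15, and its part was not tested either.

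*NRP1* at d10 and d15, *PLXNB1* at d15 and d20, and *SEMA3F* at d7 and d10 were called in opposite directions against d0. *SEMA3A* fell from d7 to d10 (-0.37, adjusted p = 0.00416, limma), but that step was -0.07 under quantile normalization (adjusted p = 0.586). *PLXNA2* rose from d7 to d10 by 0.47 (adjusted p = 7.28e-05) and its later steps did not pass in the full fit, with -0.19 from d10 to d15 (adjusted p = 0.0551) and 0.08 from d15 to d20 (adjusted p = 0.403). With only the 2 groups of a step in the fit both passed (adjusted p = 3.24e-06 and 0.0316).

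For the 3 members with the largest change on any day, the genes with the most similar course were found by Pearson's r of log2(value + 1) over the 21 libraries, as a description across libraries that share days. They were *FTSJ1* (0.99), *SIPA1L3* (0.98) and *AGPAT6* (0.98) for *SEMA7A*. They were *MACC1* (0.97), *SSX2IP* (0.96) and *ELAVL2* (0.96) for *SEMA3A*, and the mean of *MACC1* was 360 at d0 and 72.3 at d20. For *NRP2* they were *FYN*, *KIRREL* and *RAP2B* (each 0.97).

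The table held 21 other semaphorins and plexins and 17 were tested, while *SEMA3D*, *SEMA3G*, *SEMA6A* and *PLXNA4* fell under the filter. At d20, 5 of the 17 were higher and 7 lower (32.5% and 30.2% of all genes), with a median log2 fold change of -0.15 beside 0.78 for the 10 members. Both sets were chosen with earlier results of these data known, so this difference is a description only. *PLXND1*, the receptor of SEMA3E, was 129, 137 and 153 at d0 and 403, 419 and 425 at d20 (log2 fold change 1.57, adjusted p = 3.19e-11, limma). *SEMA3E* itself went from 118, 113 and 98.9 to 33.9, 25.3 and 27.4 (-1.90, adjusted p = 4.3e-05), so at d20 receptor and ligand had moved in opposite directions. This did not hold on every day. *SEMA3E* did not pass at d7 (-0.55, limma adjusted p = 0.149) or d15 (-0.59, adjusted p = 0.113). *PLXND1* did not pass at d1 (-0.17, adjusted p = 0.169). *SEMA5A* rose by 1.77, and the transmembrane ligands *SEMA4A*, *SEMA4D* and *SEMA6B* fell by 2.14, 1.83 and 1.83 on the log2 scale.

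**Figure D4:**
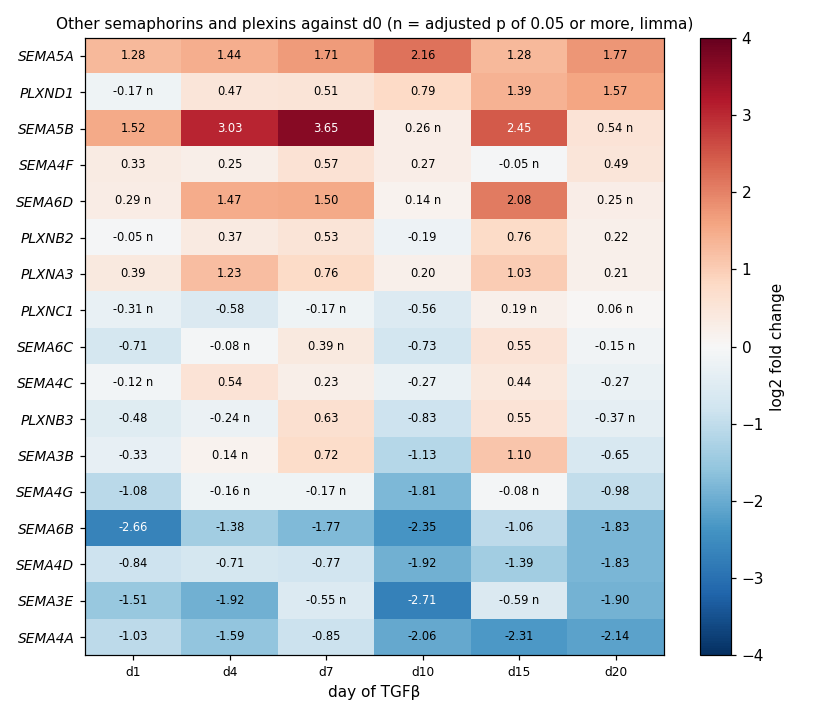
Log2 fold change against d0 (colour and number) of the 17 other semaphorins and plexins tested (rows, ordered by d20) on each treated day (columns), with n beside a value whose adjusted p was 0.05 or more. *SEMA5A* and *PLXNA3* are called higher and *SEMA6B*, *SEMA4D* and *SEMA4A* are called lower in every column, while several rows change sign between d10 and d15.

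*SEMA4D*, the best known ligand of PLXNB1, was lower on all 6 treated days, also at d15 (-1.39, adjusted p = 6.79e-08, limma), where *PLXNB1* was called higher, and at d7 (-0.77), where *PLXNB1* did not pass. From d7 to d10, 14 of the 17 other semaphorins and plexins were lower and 2 higher (35.2% and 36.2% of all genes). From d10 to d15, 14 were higher and 3 lower (39.3% and 40.5%), and from d15 to d20, 2 were higher and 12 lower (37.7% and 36.3%). Their median log2 change was -1.12, 0.95 and -0.71 over these steps, where the 10 members had 0.05, -0.25 and 0.02 and all genes tested 0.005, -0.010 and 0.002. *SEMA5B* shows how far this went, at 90.8, 88.6 and 13.03 at d7 and 1.99, 5.83 and 3.91 at d10. Those d10 values rest on 2 to 6 reads, near the floor of 3 reads. At d15 it was 17.3, 18.1 and 25.9. Its d7 library 3 stood far below the other two, and the same held for *SEMA3E*, at 111, 117 and 31.6.

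Of 36 co-receptors and signalling partners of these receptors, 32 were tested, and *CHL1*, *FLT1*, *DPYSL4* and *FES* fell under the filter. At d20, 23 were higher and 4 lower (32.5% and 30.2% of all genes), with a median log2 fold change of 0.42. Among co-receptors and neuropilin ligands, *L1CAM*, a cell adhesion molecule that joins neuropilin complexes, went from 351 ± 20.5 (SD, n = 3) at d0 to 1783 ± 54.8 at d20 (2.34, adjusted p = 6.92e-20, limma). *VEGFC*, the lymphatic growth factor that binds NRP2, went from 251 ± 9.11 to 1775 ± 5.90 (2.82, adjusted p = 3.71e-14), with 932 ± 337 at d7. *ITGA1*, which pairs with ITGB1 as a receptor for SEMA7A and collagen, rose by 1.62 (adjusted p = 1.96e-12).

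Inside the cell, *DPYSL3* (CRMP4), of the collapsin response mediator family, went from 61.5 ± 5.07 to 1242 ± 10.3 (SD, n = 3), a log2 fold change of 4.32 (adjusted p = 9.37e-15, limma). *MICAL2*, of the actin-oxidizing family that binds plexins, rose by 2.45, the SRC-family kinase *FYN* by 2.13 and *FARP1*, a plexin-associated exchange factor, by 2.10. The VEGF receptor *KDR* was the exception among the 8 largest changes, at 41.8, 50.9 and 33.6 at d0 and 10.6, 9.47 and 20.6 at d20 (-1.63, adjusted p = 0.0022). At d15 it was 273, 263 and 253, and at d10 1.99, 3.89 and 2.93, low where *PLXNB1* and *SEMA3F* were low, and at d15 it was higher than at d0 (2.63, adjusted p = 8.78e-06). At d7 *KDR* was 229 and 197 in the first 2 libraries and 43.7 in library 3.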

How the data were processed

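RNA-seq of HMLE cells was analysed at 7 timepoints with 3 libraries each. The authors deposited a normalized signal per gene and library, in which read numbers were scaled by a factor for each library and rounded to 2 decimals. The submitters' processing notes name STAR 2.7, Salmon 1.4 and build hg19 without their roles, so no hg19 coordinates are printed, and counting by strand is not given in the sources used here. Reads on genes sharing sequence or overlapping could be split. Whole reads were recovered from the deposited values (tolerance 0.011 on the scale of the deposited value) and totalled 18847917 to 22667754 per library. The lowest chi-square per gene between libraries of one day was 1.40, and none was counted as a repeat. No cut-off was set, and this value cannot tell separate cultures from separate preparations of the same culture.

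Genes with a mean of at least 10 (13343) entered limma 3.58.1 (trend, R 4.3.3) as log2(value + 1), which was checked on simulated data first. A fold change on this scale understates low genes. Alternatives were a pseudocount of 10, no filter, other scalings, 2 groups in the fit, edgeR 4.0.16 and DESeq2 1.42.0 on the recovered reads, and each library left out. A floor of 3 reads covers counting error only. The members and lists were chosen with earlier results of these data known. All 10 members were named, with listed genes at least 2-fold changed at d20 (at most 8 per list) and, for the 3 members with the largest change, the 3 most similar genes. *SEMA5B*, *PLXNA3*, *CDH1*, *VIM*, *CDH5*, *PECAM1*, *TEK*, *CD68*, *TUBB3*, *KRT5*, *KRT14*, *KRT17*, *TP63*, *ITGA6* and *EPCAM* were named after their values were seen. Library numbers follow column order and pair nothing. Figures were drawn with matplotlib 3.10.9.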

Additional observations from a re-analysis of the deposited data

Results flagged for a closer look

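*NRP1* was higher than untreated cells at d10 and lower at d15. The difference between these days was 0.83 on the log2 scale (standard error 0.06, limma adjusted p = 9.23e-11), with all 3 d10 libraries above all 3 d15 libraries. Its d15 call against d0 was lost without d0 library 1 (limma adjusted p = 0.121) or d15 library 1 (0.0739). *PLXNB1* was higher at d15 and lower at d20, with a difference of 1.17 (standard error 0.07, limma adjusted p = 1.11e-11), although its d15 rise over d0 did not pass with libraries rescaled. *SEMA3F* was higher at d7 and lower at d10, with a difference of 0.90 (standard error 0.08, limma adjusted p = 6.29e-09), and its lowest d7 library (2696) was above its highest d10 library (1867). These 3 were listed because the direction against d0 turned between 2 treated days and the difference between those days passed the test. The 2 days of each gene were those of its largest higher call and its largest lower call. They were picked from these same values, so the p-values describe the difference and add no separate support.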

How the results depend on the processing

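Of 175 counts of called genes recomputed under the alternatives, 170 stayed within 1.5 times the count reported. The other 5 were 4, 5, 5 and 5 members at d1, d4, d7 and d15 when at least a 2-fold change was also required, and 2 members from d4 to d7 with only those 2 groups in the fit. Counts of members against d0 were 8 to 10 of 10, so they could not rise past that bound. Each count also pooled both directions. At d1, 6 higher and 2 lower in the full fit, and 5 and 4 with libraries rescaled, were thus scored as unchanged. Of 1612 values of single genes, 1539 kept direction and side of the threshold, 39 lost a call, 19 gained one and 15 changed sign. With libraries rescaled to one total, *SEMA4B* was -0.15 at d1 and -0.18 at d20, *NRP1* -0.19 at d4 and *SEMA3F* -0.029 at d4. Under quantile normalization *SEMA4B* was -0.0645 at d1 and -0.083 at d20, *NRP1* -0.071 at d4 and *PLXNA2* -0.014 from d15 to d20. With edgeR *NRP1* was -0.035 at d4. Leaving out 1 library at a time gave -0.022 to 0.0475 for *NRP1* at d4, -0.086 to 0.11 for *PLXNB1* at d7 and -0.020 to 0.041 for *SEMA4B* from d4 to d7. No paired analysis was possible because the table's headers give the day alone. The cause of these shifts was not tested. Small changes near 0 depend on the scaling. Library 3 of d7 sets the spread at d7 and, through the spread shared by all groups, enters the standard errors of other days.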
